A study of Mus musculus with 6 samples.

Results

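The 10 genes Cd3d, Cd3e, Cd3g, Cd247, Cd4, Cd5, Cd6, Lck, Zap70 and Lat encode parts of the T-cell receptor (TCR) complex, its coreceptors and the proteins that carry its first signals. They were taken by name as rows of a deposited table of raw UMI counts, and are 10 of its 14098 genes. UMIs are molecular tags that let each captured mRNA be counted once. The table holds 10685 single cells sorted as EGFP-positive regulatory T (Treg) cells from mouse spleen. The study compared 3 cKO samples, Bach2fl/fl Foxp3EGFP-Cre-ERT2, with 3 WT samples, Bach2+/+ Foxp3EGFP-Cre-ERT2, on the C57BL/6 strain at 18 to 21 weeks after birth. In both groups the mice were given tamoxifen and carried the Foxp3 allele, which marks Foxp3-expressing cells with EGFP and gives them a Cre recombinase that tamoxifen activates. Bach2 is a transcriptional repressor that restrains effector differentiation of T cells. Libraries were made with the 10x Genomics Chromium 3′ kit (v2) from CD4-enriched, sorted cells.

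The TCR has no signalling tail of its own. It is held at the cell surface by the CD3 chains delta, epsilon and gamma (Cd3d, Cd3e, Cd3g) and by the zeta chain (Cd247), whose tails carry tyrosine motifs. The kinase Lck, bound to the CD4 coreceptor, phosphorylates these motifs. The kinase Zap70 then docks on them and phosphorylates the adaptor Lat, on which downstream enzymes assemble. Cd5 and Cd6 are scavenger-receptor family surface proteins that tune the signal, and Treg cells depend on TCR signals for their suppressive function.

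No name in the table ties a cell to a sample. The cell names are barcodes ending in a suffix from 1 to 6, called barcode sets here, and the genotype of a set is not given in the sources used here. No set was assigned a genotype, so no comparison of cKO with WT was made. All values below are therefore given for the sets together and for each set, without a test, since cells of a set are not replicates. In all, 63 barcodes occurred in more than 1 set, in 126 cells. Of the 10685 cells, 10680 were kept, with 3998172 to 4785201 UMIs a set and a median of 2003 to 2229.5 UMIs a cell. Foxp3, which defines the sorted cells, lay at 19.5 to 22.5 counts per 1000000 UMIs (CPM) over the sets and had a UMI in 4.82% of the cells. Ikzf2, Tnfrsf18, Il2ra and Ctla4, all high in Treg cells, had a UMI in 78.3%, 62.9%, 19.0% and 18.6% of the cells. Cd8a lay at 0 to 0.750 CPM over the sets. The targeted gene, Bach2, lay at 19.4 to 37.1 CPM over the sets, and the counts do not separate its floxed exons from the rest.

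The upstream sequences of the 4 CD3 chains and of Zap70 are shown because Cd3d, Cd3e and Cd3g lie side by side in the genome, while Cd247 and Zap70, whose ratios over cell states differed from theirs, lie apart. On mm10 (GENCODE vM21), Cd3g spans chr9:44969572-44980431 on the minus strand and Cd3d spans chr9:44981786-44987339 on the plus strand, so that their starts lie 1355 bases apart and point away from each other. Cd3e follows at chr9:44998740-45009627 on the minus strand. Cd247 spans chr1:165788681-165877277 and Zap70 spans chr1:36761798-36782818, both on the plus strand. All are protein-coding genes. Each line gives the 250 bases before the RefSeq transcription start (GRCm38.p6), 5′ to 3′ along the gene's own strand. Capitals mark AGGAAG, a core of sites for ETS-family factors, and CAGGTG, an E-box form, or their reverse complements CTTCCT and CACCTG.
Cd3d, chr9:44981536-44981785, plus strand: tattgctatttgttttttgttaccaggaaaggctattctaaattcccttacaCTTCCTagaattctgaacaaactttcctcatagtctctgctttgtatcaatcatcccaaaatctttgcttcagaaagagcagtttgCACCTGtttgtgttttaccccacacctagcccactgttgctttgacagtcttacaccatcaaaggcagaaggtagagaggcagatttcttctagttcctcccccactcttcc
Cd3e, chr9:45009612-45009861, minus strand: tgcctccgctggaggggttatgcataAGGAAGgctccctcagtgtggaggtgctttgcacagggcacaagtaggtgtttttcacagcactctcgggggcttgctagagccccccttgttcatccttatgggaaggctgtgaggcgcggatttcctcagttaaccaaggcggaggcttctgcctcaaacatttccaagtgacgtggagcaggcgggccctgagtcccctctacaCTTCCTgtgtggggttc
Cd3g, chr9:44980432-44980681, minus strand: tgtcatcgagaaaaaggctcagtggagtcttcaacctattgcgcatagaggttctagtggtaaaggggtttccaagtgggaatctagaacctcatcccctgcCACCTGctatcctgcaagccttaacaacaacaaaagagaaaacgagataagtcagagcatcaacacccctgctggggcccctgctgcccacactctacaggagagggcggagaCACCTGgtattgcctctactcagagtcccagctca
Cd247, chr1:165788431-165788680, plus strand: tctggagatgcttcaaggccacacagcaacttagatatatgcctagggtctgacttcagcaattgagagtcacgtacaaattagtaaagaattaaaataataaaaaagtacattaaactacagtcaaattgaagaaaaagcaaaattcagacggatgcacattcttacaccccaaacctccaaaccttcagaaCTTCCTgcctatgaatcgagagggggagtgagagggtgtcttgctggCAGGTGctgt
Zap70, chr1:36761548-36761797, plus strand: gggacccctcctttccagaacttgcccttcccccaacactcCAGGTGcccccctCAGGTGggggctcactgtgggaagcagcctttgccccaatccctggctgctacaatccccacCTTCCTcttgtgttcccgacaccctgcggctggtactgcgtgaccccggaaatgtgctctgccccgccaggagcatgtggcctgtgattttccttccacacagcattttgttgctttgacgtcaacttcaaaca
AGGAAG occurred on either strand in 4 of these 5 sequences and in 29.5% of the 32851 upstream sequences of the same length in the RefSeq table. It was absent from the Cd3g sequence and occurred at 2 places in the Cd3e sequence. CAGGTG occurred in 4 of the 5 and in 17.2% of all, with 2 matches each in the Cd3g and Zap70 sequences and none in that of Cd3e. No match of the 2 words overlapped another. CCGGAA, another ETS-type word, occurred in the Zap70 sequence and in 12.0% of all. The other 7 words searched had no match in the 5 sequences on either strand. Of these, the E-box forms CAGATG and CAGCTG occurred in 14.4% and 13.0% of all, the RUNX core TGTGGT in 14.0% and the TATA box TATAAA in 12.4%. The SP1 word GGGGCGGGG occurred in 10.4%, and the TCF7 and LEF1 words AACAAAG and TTCAAAG in 5.03% and 4.46%. The TCF7 and LEF1 core was searched in these 2 forms only, so sites of another form were not counted. A match describes letters only, and Cd3d and Cd3g, which have close levels, share CAGGTG but not AGGAAG.

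The 10 genes fell into a group of high and a group of low levels. The 3′ chemistry gives about 1 tag per captured transcript whatever its length, so levels in CPM were not divided by gene length. Cd3g stood at 1391 CPM over all kept cells (95% interval 1376 to 1405) and Cd3d at 1323 CPM (1309 to 1337). Over the 6 sets, Cd3g ran from 1158 over a median of 1371 to 1618 CPM, and Cd3d from 1238 over 1310 to 1422 CPM, so these neighbours in the order overlapped. Cd3e followed at 735 CPM, from 638 over 739 to 831 CPM. Lck lay at 654 CPM, from 587 over 655 to 720 CPM. Its range overlapped that of Cd3e, but Lck lay below Cd3e in every set. Lat lay at 579 CPM, from 537 over 567 to 652 CPM. The other 5 genes lay below 240 CPM in every set.

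Among the low genes, Cd5 lay at 214 CPM, from 178 over 225 to 239 CPM in the sets. Cd6 lay at 194 CPM, from 169 over 197 to 220 CPM. Zap70 lay at 165 CPM, from 145 over 168 to 179 CPM, and Cd247 at 164 CPM, from 145 over 164 to 183 CPM. Cd4, the coreceptor that defines the enriched cells, was the lowest of the 10 at 137 CPM, from 124 over 138 to 152 CPM. The ranges of Cd5, Cd6, Zap70 and Cd247 overlapped with each neighbour, and that of Cd4 overlapped those of Zap70 and Cd247. Set by set, Cd4 lay below both Zap70 and Cd247 in every set. The zeta chain thus gave few UMIs beside its partners: of 90291 CD3-chain UMIs in scored Treg cells, Cd3g gave 38.5%, Cd3d 36.7%, Cd3e 20.3% and Cd247 4.53%. The share of Cd247 ran from 4.30% to 4.75% over the sets.

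**Figure D1:**
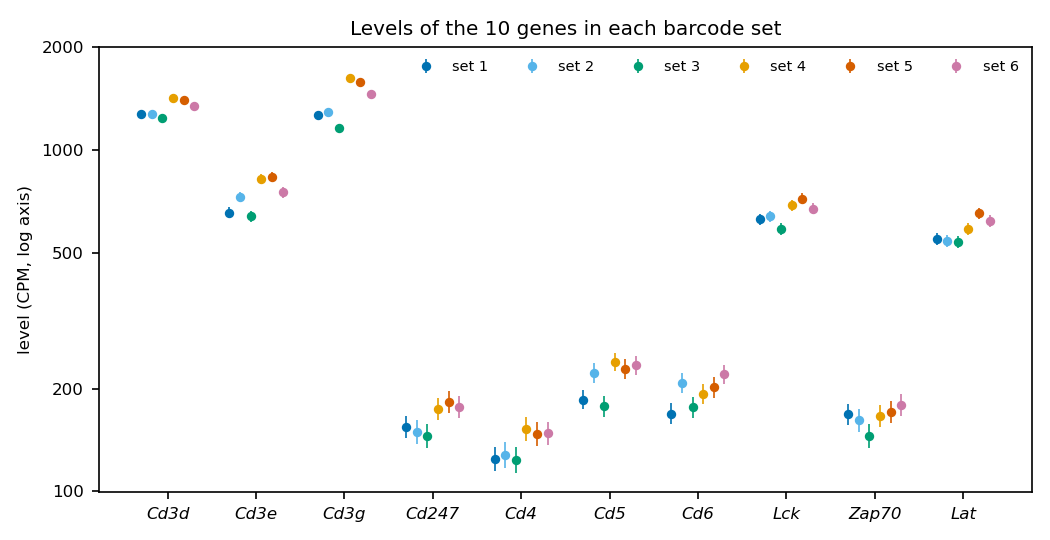
Level of each of the 10 genes (CPM, log axis) in each of the 6 barcode sets over all kept cells, with exact Poisson 95% intervals that cover counting error only. Cd3d and Cd3g lie at 1158 CPM or more in every set, and Cd247, Cd4, Cd5, Cd6 and Zap70 below 240 CPM in every set.

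Between sets the levels differed by at most 1.40-fold. The highest set stood over the lowest by 1.40-fold for Cd3g, 1.35-fold for Cd5, 1.30-fold for Cd3e and Cd6, 1.26-fold for Cd247, and 1.15-fold for Cd3d. The values of Lck, Lat, Cd4 and Zap70 lay between 1.21-fold and 1.23-fold. The share of UMIs from ribosomal protein genes also differed, from 31.5% to 37.5% over the sets. With ribosomal protein and mitochondrial genes taken out of the totals, the same ratios were 1.27-fold for Cd3g, 1.23-fold for Cd5, 1.05-fold for Cd3d and between 1.11-fold and 1.23-fold for the other 7.

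Transcripts of the low genes were seen in a minority of cells at this depth. After each cell of at least 1000 UMIs was thinned to 1000, Cd3g had a UMI in 74.7% of 10253 Treg cells, Cd3d in 72.7%, Cd3e in 52.3%, Lck in 48.7% and Lat in 43.8%. Cd5 had one in 19.8%, Cd6 in 17.6%, Zap70 and Cd247 each in 14.9%, and Cd4 in 13.5%. Before thinning the shares ran from 27.2% for Cd4 to 93.6% for Cd3g. At least 1 of the 4 CD3 chains was seen in 96.3% of the thinned Treg cells, and the median cell held UMIs of 4 of the 10 genes.

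The table also held 86 B-cell-like cells, set apart by UMIs of at least 3 of 10 B-cell markers, which carry no TCR. Of the 10 genes, at least Cd5 is also known from some B cells. Their shares serve as a background, in which free RNA and droplets with more than 1 cell were not told apart. In them, at a median of 1960 UMIs before thinning against 2128 in Treg cells, Cd3g had a UMI in 22.1%, Lck in 20.9%, Cd3d and Cd3e in 19.8%, Lat in 16.3%, Cd247 in 8.14%, Cd5 and Zap70 in 5.81% and Cd4 in 2.33% of the thinned cells. For Cd6 the count was 0 of 86 cells (exact 95% limit 4.20%). As levels, the B-cell-like cells held between 0.208 (Cd6) and 0.402 (Cd247) of the Treg CPM. The ratio was 0.245 for Cd3d, 0.219 for Cd3g, 0.331 for Cd3e and 0.336 for Zap70. For Cd247 the exact 95% interval of the share in Treg cells, 14.2% to 15.6%, overlapped that in B-cell-like cells, 3.34% to 16.1%. The other 9 genes had intervals that did not overlap.

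The levels also moved with the depth of a cell. When the Treg cells of each set were split into tertiles by UMIs, Cd3g fell from 1746 CPM in the shallowest tertile through 1480 to 1213 CPM in the deepest. Cd3d went from 1449 through 1393 to 1254 CPM, Cd3e from 854 through 776 to 674 CPM, and Lck from 734 through 682 to 618 CPM. Cd247 went the other way, from 151 through 168 to 169 CPM, and Lat was level, at 579, 598 and 579 CPM. Zap70 lay at 176, 169 and 162 CPM. Depth is therefore given beside each cell state below, and each ratio was also computed against cells of the same set and the same tertile.

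The Treg cells were then divided by marker genes that include none of the 10. A cell was counted as high for a state when its 1000 thinned UMIs held at least 2 different markers of that state, or 4 for the S100 list. Each state was set against all other Treg cells, so the 8 comparisons share cells. A gene was called higher or lower when its UMIs, relative to all UMIs, had a log2 ratio of at least 0.32 either way over all cells and pointed the same way in each of the 6 sets. The same rule was applied to the 4849 genes with a mean of at least 20 CPM, which include all 10. Intervals on ratios are exact 95% intervals for counting error. The median tested gene was off 0, by −0.11 on the log2 scale in resting-marker cells and by 0.15, 0.11 and 0.15 in S100-, Ccl5- and follicular-marker cells. Ratios relative to that median are given where it matters.

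**Figure D2:**
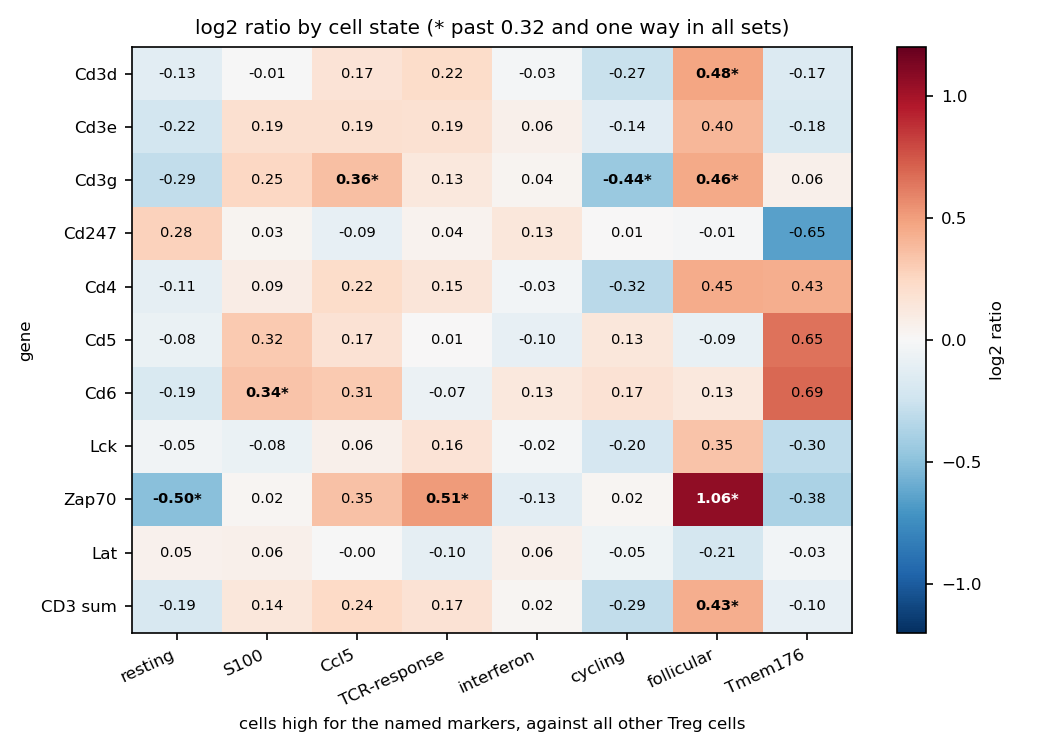
log2 ratio of the level in cells of each state over all other Treg cells for the 10 genes and for the sum of the 4 CD3 chains, with UMIs pooled over the 6 sets. An asterisk marks a log2 ratio past 0.32 with each of the 6 sets pointing the same way; Zap70 runs from −0.50 in resting-marker cells to 1.06 in follicular-marker cells.

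Among the 10 genes, Zap70 had the widest span of ratios over the 6 states of more than 200 cells. In the 1778 resting-marker cells, which hold UMIs of genes of naive-like T cells such as Ccr7, Lef1 and Tcf7, Zap70 lay between 107 and 146 CPM in the 6 sets, with a median of 125 CPM. In the other Treg cells it lay between 157 and 188 CPM, with a median of 179 CPM, so the sets did not overlap. The log2 ratio was −0.50 (interval −0.63 to −0.38), and −0.39 relative to the median gene. Zap70 was the 1 gene of the 10 called lower in these cells, beside 9.96% of all tested genes. None of the 10 was called higher, beside 1.73%. Resting-marker cells were deeper than the others, at a median of 2507 against 2051 UMIs, but the Zap70 ratio was −0.42, −0.53 and −0.49 in the shallow, middle and deep tertiles. Against cells of the same set and tertile it was −0.49. With at most 10% of Treg cells in the state, or at a limit of 1.5-fold, it was not called.

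In 802 cells with UMIs of genes that TCR signals induce (Nr4a1, Egr1, Egr2, Tnfrsf9, Cd83, Cd69 and others), Zap70 lay between 208 and 275 CPM in the 6 sets, with a median of 217 CPM. The other Treg cells lay between 142 and 171 CPM, again without overlap. Their median depth was 2022 against 2138 UMIs. The log2 ratio was 0.51 (0.37 to 0.66), and it was 0.63, 0.44 and 0.48 in the 3 tertiles by depth. At a limit of 1.5-fold it was not called. Zap70 was the 1 gene of the 10 called higher in these cells, beside 5.63% of all tested genes, and none was called lower, beside 2.54%.

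The 215 follicular-marker cells held the highest Zap70 level of the 8 states. These cells were picked mostly by Pdcd1, the inhibitory receptor PD-1 of follicular T cells, with a UMI in 69.3% of them, and by Hif1a, in 64.2%. Cxcr5 had one in 16.7% and Bcl6 in 6.05%, so they are named by their markers and not as follicular Treg cells. At a median depth of 1892 against 2133.5 UMIs, Zap70 lay between 190 and 510 CPM in the sets, with a median of 342 CPM, against 145 to 180 CPM in the other cells. Its log2 ratio was 1.06 (0.83 to 1.28), from 169 UMIs, and 0.91 relative to the median gene. With Hif1a left out of the markers, 98 cells remained and the ratio was 1.10. In the cells high for this state only (100 cells) against those high for none, the ratio was 0.78 and was not called.

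In the 1518 Ccl5-marker cells (Ccl5, Cxcr3, Id2, Maf, Nkg7 and others, genes of effector T cells), Zap70 lay between 180 and 228 CPM, with a median of 208 CPM, against 142 to 181 CPM in the others. The log2 ratio was 0.35 (0.23 to 0.47), but it was higher in 5 of 6 sets only and so was not called. The exception was set 6, where the log2 ratio was −0.01, while the other 5 sets lay between 0.37 and 0.47. Without set 6, the gene was called. In S100-marker and interferon-marker cells Zap70 did not pass the rule, with log2 ratios of 0.02 (−0.11 to 0.15) and −0.13 (−0.33 to 0.07).

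**Figure D3:**
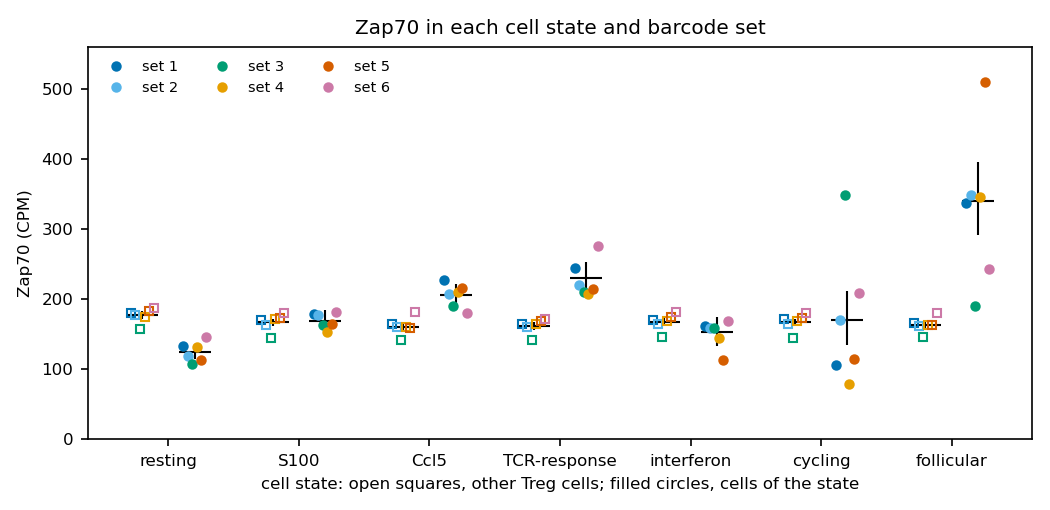
Zap70 level (CPM) in the cells of each state (filled circles) and in all other Treg cells (open squares), 1 point per barcode set, with the pooled value and its exact Poisson 95% interval in black; the Tmem176-marker state, with 36 cells, is left out. Resting-marker cells lie at 107 to 146 CPM and follicular-marker cells at 190 to 510 CPM.

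The ratios of the delta, epsilon and gamma chains of CD3 had the same sign in the resting-, Ccl5-, TCR-response-, cycling- and follicular-marker cells, but not in the other 3 states. In S100-marker cells Cd3d was at −0.01, Cd3e at 0.19 and Cd3g at 0.25. Summed with Cd247, they were highest in the follicular-marker cells, at 3971 to 5562 CPM in the sets with a median of 4750 CPM, against 3182 to 4053 CPM in the others. The log2 ratio of the sum was 0.43 (0.37 to 0.49), called higher, and 0.28 relative to the median gene. Cd3d (log2 ratio 0.48, interval 0.38 to 0.57) and Cd3g (0.46, 0.36 to 0.55) were called higher there with Zap70, making 3 of the 10 called higher and none lower, beside 5.73% and 2.87% of all tested genes. The Cd3g ratio was 0.30 relative to the median gene, where it and the sum were not called, nor were they with ribosomal protein and mitochondrial genes out of the totals. Cd3d was not called without Hif1a as a marker, with levels from thinned UMIs or, like Cd3g, in cells thinned to 500 UMIs, and at 1.5-fold only Zap70 was called. Cd3e, at 0.40 (0.26 to 0.53), was higher in 5 of 6 sets. Within the tertiles by depth, the ratio of the sum was 0.36, 0.48 and 0.41. Markers of B cells summed to 88.7 CPM in these cells and to 63.0 CPM in the others, and myeloid markers to 177 against 154 CPM; their part in the result was not tested.

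In Ccl5-marker cells the CD3 sum had a log2 ratio of 0.24 (0.21 to 0.26), and 0.13 relative to the median gene. Cd3g lay between 1375 and 1937 CPM in the sets, with a median of 1680 CPM, against 1138 to 1574 CPM in the others. The ranges overlapped, but each set had the higher value in its Ccl5-marker cells. Its log2 ratio was 0.36 (0.32 to 0.40), and it was 1 of 10 genes called higher, beside 6.72% of all tested genes, with none called lower, beside 1.75%. These cells were shallower, at a median of 1869 against 2174 UMIs, and against cells of the same set and tertile the ratio of Cd3g was 0.24, under the limit of 0.32. Myeloid markers summed to 186 against 149 CPM, and their part in the result was not tested. Cd6 (log2 ratio 0.31), Cd4 (0.22), Cd3e (0.19), Cd5 (0.17) and Cd3d (0.17) were also higher in 6 of 6 sets, below 0.32.

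In resting-marker cells the CD3 sum was lower by a smaller margin, at 2800 to 3817 CPM against 3308 to 4114 CPM in the others, with a log2 ratio of −0.19 (−0.21 to −0.16). Relative to the median gene it was −0.08, and against cells of the same set and tertile it was −0.12. Cd3g (−0.29), Cd3e (−0.22), Cd6 (−0.19) and Cd3d (−0.13) were lower in 6 of 6 sets without reaching 0.32. Lck and Lat, the kinase that opens the cascade and the adaptor that Zap70 acts on, had log2 ratios of −0.05 (−0.10 to 0.01) and 0.05 (−0.01 to 0.11).

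The TCR-response-marker cells had a CD3 sum of 3857 to 4408 CPM against 3149 to 4047 CPM, a log2 ratio of 0.17 (0.14 to 0.20). Cd3d (0.22), Cd3e (0.19) and Lck (0.16) were higher in 6 of 6 sets below 0.32, and Lat had a log2 ratio of −0.10 (−0.20 to −0.01), lower in 5 of 6 sets. In the 606 interferon-marker cells (Isg15, Irf7, Ifit1 and others), at a median depth of 2089 against 2130 UMIs, none of the 10 was called, beside 2.47% of all tested genes called higher and 1.79% lower, and the CD3 sum had a log2 ratio of 0.02 (−0.02 to 0.06).

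Cd6 was called in the S100-marker cells. These 1260 cells hold UMIs of genes of tissue-homing effector cells such as S100a4, S100a6, Lgals1 and Itgb1. Cd6 lay between 197 and 285 CPM, with a median of 227 CPM, against 168 to 208 CPM in the others, and its log2 ratio was 0.34 (0.23 to 0.45). It was 1 of 10 genes called higher, beside 15% of all tested genes, and none was called lower, beside 4.5%. Relative to the median gene the ratio was 0.19, where it was not called. Cd6 was called under 12 of 21 alternatives. It was not called against cells of the same set and tertile, nor in cells high for this state only against those high for none. Its relative Cd5 had a ratio of 0.32 (0.21 to 0.43), higher in 6 of 6 sets and just short of the limit, but 0.17 relative to the median gene. Cd3d was level at −0.01 (−0.06 to 0.04), while Cd3g stood at 0.25 (0.21 to 0.29) and Lck at −0.08 (−0.15 to −0.02). The median depth was 2025 against 2145 UMIs. Ribosomal protein genes gave 27.7% of UMIs in these cells and 35.5% in the others, and myeloid markers summed to 211 against 146 CPM; their part in the result was not tested.

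The 61 cycling-marker cells were far deeper, at a median of 7189 UMIs. The CD3 sum lay at 2875 to 3097 CPM against 3198 to 4079 CPM in the others, and its log2 ratio was −0.29 (−0.37 to −0.22). Cd3g, from 751 to 1287 CPM, was the 1 of 10 genes called lower, at −0.44 (−0.57 to −0.31), beside 8.97% of all tested genes called lower and 9.55% higher. Without cells holding UMIs of other cell types and the top 2% by UMIs, 18 cells were left and its log2 ratio was 0.28, in the opposite direction. Of the 61 cells, 52 lay in the deepest tertile, and within it the ratio of Cd3g was −0.27 (−0.41 to −0.14). Against cells of the same set and tertile it was −0.32 and was not called. The 36 cells with UMIs of Tmem176a, Tmem176b, Rora, Ccr6 and related genes gave few counts, at a median depth of 2260.5 against 2127 UMIs. None of the 10 was called there, beside 1.44% of all tested genes called higher and 6.06% lower. Cd5, from 29 UMIs, had a log2 ratio of 0.65 (0.07 to 1.17), and Cd6, from 27 UMIs, 0.69 (0.08 to 1.23), higher in 4 and 5 of 6 sets.

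Cd247 did not follow its partner chains. In resting-marker cells, where the other 3 chains were lower, Cd247 lay between 171 and 230 CPM in the 6 sets, with a median of 185 CPM, against 139 to 178 CPM in the other cells. Its log2 ratio was 0.28 (0.17 to 0.39), higher in 6 of 6 sets, and just under 0.32. Relative to the median gene it was 0.39, which passes the rule. As a share of CD3-chain UMIs, Cd247 made up 5.88% in resting-marker cells (exact 95% interval 5.51% to 6.26%) and 4.25% in the others (4.11% to 4.40%). Over the sets the shares ran from 4.91% to 6.50% and from 4.07% to 4.42%, with no overlap. A share within the same cells does not depend on the total used.

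The share was higher in deeper cells, going from 3.58% through 4.41% to 5.09% over the tertiles of all Treg cells. In resting-marker cells it was 4.47%, 5.33% and 6.46% in the 3 tertiles against 3.495%, 4.24% and 4.71% in the others, and the intervals overlapped in the shallow tertile only. The other cells of the same sets and tertiles had a share of 4.41%.

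The share went the other way in Ccl5-marker cells, at 3.72% (3.41% to 4.04%) against 4.68% (4.53% to 4.83%), and the sets ran from 3.03% to 4.07% and from 4.36% to 4.96% without overlap. In follicular-marker cells it was 3.35% (2.67% to 4.14%) against 4.56%, from 81 Cd247 UMIs, with sets from 2.63% to 4.38% and from 4.34% to 4.79%. Both states were shallower than the others. In Ccl5-marker cells the share was 3.41% against 3.63% in the shallow tertile, with overlapping intervals, as they were in the middle one at 3.78% against 4.53%, and 3.93% (3.42% to 4.48%) against 5.27% (5.04% to 5.51%) in the deep one. In follicular-marker cells it was 2.45%, 3.93% and 3.61% against 3.63%, 4.43% and 5.13%, with intervals that overlapped in every tertile. Weighted to the same sets and tertiles, the other cells had 4.54% and 4.50%, above the interval of each state. In both, the level of Cd247 itself differed little: the log2 ratio was −0.09 (−0.23 to 0.04) and −0.01 (−0.35 to 0.30), while the other chains were higher. Within tertiles by depth, the Cd247 log2 ratio in resting-marker cells was 0.25 (−0.09 to 0.57), 0.16 (−0.05 to 0.37) and 0.32 (0.17 to 0.45). In TCR-response-marker, S100-marker and interferon-marker cells, the intervals of the Cd247 share, 4.17% (3.73% to 4.64%), 4.26% (3.91% to 4.63%) and 4.87% (4.30% to 5.48%), overlapped those of the other cells.

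**Figure D4:**
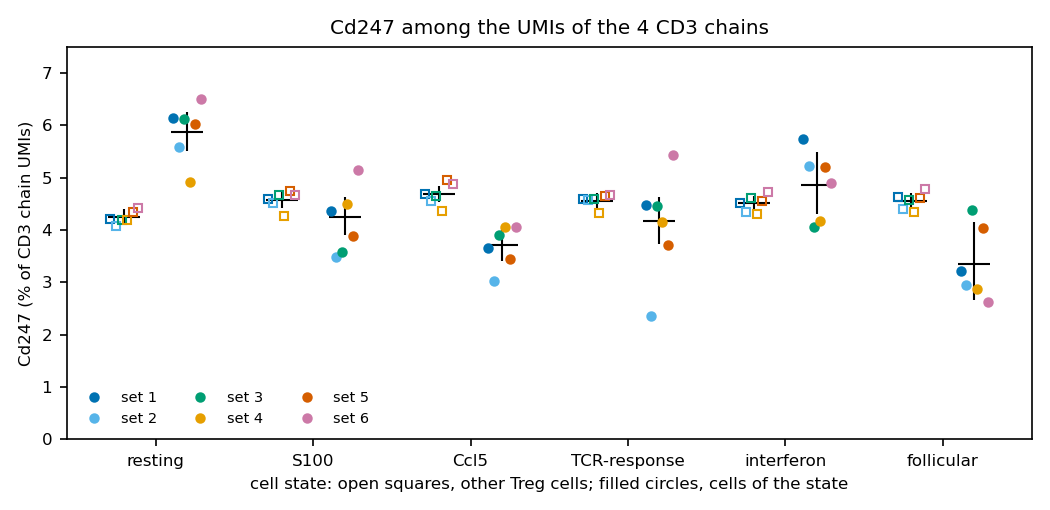
Cd247 as a percentage of the UMIs of Cd3d, Cd3e, Cd3g and Cd247 in cells of 6 states (filled circles) and in all other Treg cells (open squares), 1 point per barcode set, with the pooled share and its exact binomial 95% interval in black. Resting-marker cells lie at 4.91% to 6.50% and Ccl5-marker cells at 3.03% to 4.07%.

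**Figure D5:**
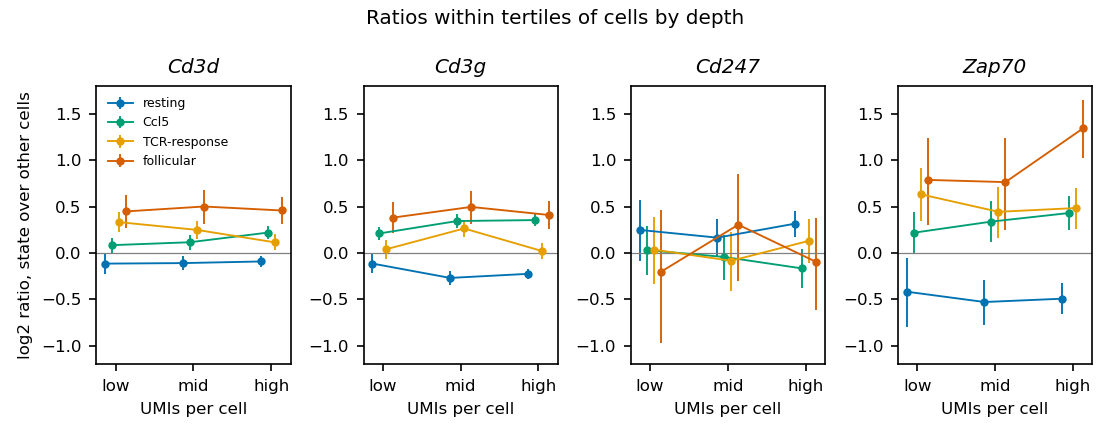
log2 ratio of Cd3d, Cd3g, Cd247 and Zap70 in 4 cell states over other Treg cells within the shallow, middle and deep tertiles of cells by UMIs (tertiles drawn in each set), with exact 95% intervals. Zap70 lies at −0.42, −0.53 and −0.49 in resting-marker cells and at 0.79, 0.76 and 1.34 in follicular-marker cells.

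The genes were also set against each other over 36 sums of the same cells, which is not a separate source of evidence. These join 6 classes of cells (high for exactly 1 of the 5 larger states, or for none of these 5) with the 6 sets, and hold from 38 to 1048 cells. Follicular-, cycling- and Tmem176-marker cells were not set apart from these classes. The sums of a set share its library, so the correlations are a description. Pearson's r between Cd3e and Cd3g was 0.83, between Cd3d and Cd3g 0.78 and between Cd3d and Cd3e 0.61. Cd247 had r of 0.06, 0.10 and 0.15 with Cd3d, Cd3e and Cd3g, and −0.39 with Zap70. With the same chains, Lat had r of 0.05, 0.28 and 0.28, and Cd6 had r of 0.13, 0.40 and 0.37. Zap70 had r of 0.50 with Cd3d and −0.34 with Lat. The low genes Cd247, Cd4, Cd5, Cd6 and Zap70 have few UMIs in the smallest sums. The part of counting error in their r was not tested, so their r is not on a par with that of the high genes. Outside the 10 genes and among those of at least 50 CPM, the CD3 sum was most like B2m (r = 0.85), Samsn1 (0.82), Fth1 (0.79), Tnfrsf18 (0.79) and Cd82 (0.78). B2m is the light chain of MHC class I and Tnfrsf18 is the costimulatory receptor GITR. Zap70 was most like Hif1a (0.82), a marker of the follicular list, whose protein is a hypoxia-responsive transcription factor. Cd5 was most like Sugt1 (0.78), Cd4 like Coa3 (0.71), Lat like Ly6a (0.70), Lck like Tspan13 (0.68) and Cd6 like Tmem192 (0.66).

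A list of 56 further genes of the TCR pathway held 53 genes in the table and 48 above 20 CPM. In resting-marker cells, 3 of the 48 were called higher and 7 lower, beside 1.73% and 9.96% of all tested genes, and the median log2 ratio was −0.12 against −0.11 over all tested genes. Txk, a Tec-family kinase, was higher at 97.3 against 46.1 CPM, a log2 ratio of 1.08 (0.91 to 1.24). The adaptor Grap2 (also known as Gads), which joins Lat to Slp-76, was higher at 0.51. Lax1, an adaptor that dampens the signal, was lower at −0.61, as was Sh2d1a (SAP), an adaptor of the SLAM receptors, at −0.51.

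In TCR-response-marker cells, 8 of the 48 were called higher and 2 lower, beside 5.63% and 2.54% of all tested genes. Lax1 (0.62) and Sh2d2a (0.60), an adaptor that binds Lck, were higher, and the inhibitory adaptor Sit1 (−0.61) and Txk (−0.60) were lower. In follicular-marker cells, 6 were called higher and 3 lower, beside 5.73% and 2.87% of all tested genes. Txk stood at 20.2 against 56.6 CPM (−1.49), Sit1 at −0.76, Lax1 at 84.7 against 39.4 CPM (1.10) and the phosphatase Ptpn22 at 177 against 102 CPM (0.80). Ccl5-marker cells had 5 higher and 1 lower, beside 6.72% and 1.75%, with Txk at −0.95 and Ptpn7 (0.50), Dok1 (0.49) and Grap (0.41) higher. Txk was called higher where Zap70 was lower and called lower in 3 states in which the Zap70 log2 ratio was 0.35 or more. Resting-marker cells not also in those 3 states are among the other cells there, so these are not separate observations. In S100-marker cells Txk stood at 41.6 against 57.9 CPM (−0.48, interval −0.75 to −0.22). It was higher in 1 of 6 sets and not called, while the Zap70 log2 ratio was 0.02.

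In S100-marker cells, 7 of the 48 were called higher and 1 lower, beside 15% and 4.5% of all tested genes, so the list was near the background. The called genes of largest ratio were the negative adaptors Dok2 (0.80), Sla2 (0.71) and Sla (0.70) and the Ras-pathway adaptor Grb2 (0.66), and the median log2 ratio was 0.16 against 0.15 over all tested genes. In interferon-marker cells none was called higher and 2 lower, beside 2.47% and 1.79% of all tested genes, and these were Lax1 (−0.51) and the phospholipase Plcg1 (−0.47). Beside 9.55% and 8.97% of all tested genes, cycling-marker cells had 1 higher, Grb2 (1.01), and 3 lower, Tespa1 (−0.88), Rhoh (−0.55) and the costimulatory receptor Cd2 (−0.41). In Tmem176-marker cells none was higher and 2 were lower, beside 1.44% and 6.06%: Rasa2 had no UMI, which allows up to 35.0 CPM against 33.9 CPM in the others, and Lax1 stood at 11.7 against 40.4 CPM. These cells hold 85762 UMIs of all genes together, so the Lax1 call also rests on very few counts.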

How the data were processed

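The deposited table gave raw UMI counts per gene and cell, per the file's values. The submitters' processing notes name mm10 as the build and list Cell Ranger, Seurat, HISAT2, cutadapt and FastQC, with no versions and no order. A second deposited table of normalised values was not used. The 10685 columns of cells carry no name that ties them to a sample, and 0 were tied. The planned edgeR test of cKO against WT was therefore not made.

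The 10 genes, the marker lists and the pathway list were chosen with earlier results of these data known. Kept cells had 200 or more genes and mitochondrial UMIs below 10%, and 10365 cells of at least 1000 UMIs were thinned to 1000 (seed 1) to assign states. Cells with UMIs of at least 3 B-cell or 3 myeloid markers (86 and 22 cells) and 4 erythroid cells were left out, leaving 10253 Treg cells. A state was the smallest number of different markers, from 2, that at most 25% of Treg cells reached. At this, 5188 cells were high for no state and 1069 for several. Just inside and just outside the S100 limit of 4 markers lay 658 and 1418 cells. Levels are UMIs per 1000000 with exact Poisson intervals, ratios carry exact conditional binomial intervals and shares exact Clopper-Pearson intervals, all at 95% and for counting error only. No doublet caller was run, and an alternative left out the 2% of cells with most UMIs and any cell with a UMI of Hbb-bs, Cd8a, Lyz2 or Cd79a. Named genes were all 10 members, in each state up to 4 called pathway genes of largest ratio, and the genes most like the members by Pearson's r of log2(CPM + 10). Alternatives, of which those on thinned levels, shared barcodes, the median gene, Hif1a and depth tertiles were chosen after seeing the data, covered the cap, thinning, seeds, exclusive states, totals, matching within sets and depth tertiles, cell filters, leaving out each set, and the fold limit. The ratios were tested on simulated counts. Sequences came from the RefSeq promoter table, which matched 8 of the 10 genes. Python 3.11.15, numpy 2.4.6, scipy 1.17.1 and matplotlib 3.10.9 were used.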

Additional observations from a re-analysis of the deposited data

Results flagged for a closer look

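Over the 6 barcode sets, 10 levels and 50 log2 ratios (the 10 genes in the 5 larger states) were looked at for a set far from the rest, as measured by its gap to the nearest set over the whole range. Chance alone marks about 1 in 20 such groups of values. 2 of the 60 stood out. In Ccl5-marker cells, the log2 ratio of Zap70 in set 6 was −0.0074, while the other 5 sets lay between 0.37 and 0.47. In S100-marker cells, the log2 ratio of Lck in set 1 was 0.051, while the other 5 sets lay between −0.16 and −0.10. No level of the 10 genes over all kept cells stood out in this way.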

How the results depend on the processing

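In brackets, each cell state is named by its markers, and the CD3 ratio is the log2 ratio of the sum of the 4 chains. Zap70 was called lower in resting-marker cells under 19 of 21 alternatives, the exceptions being the cap of 10% and 1.5-fold, and higher in TCR-response-marker cells under 20 of 21, 1.5-fold being the exception. It was called in follicular-marker cells under 21 of 22, though thinning seeds and matching leave that state at under 250 cells. Cd6 in S100-marker cells and Cd3g in Ccl5-marker cells were called under 12 and 16 of 21, and Cd3d and Cd3g in follicular-marker cells under 18 of 22 each. Cd3g in cycling-marker cells turned from −0.44 to 0.28 without cells with UMIs of other cell types and the top 2% by UMIs, where 18 cells were left; the cause was not tested for this or the values that follow. With at most 10% of Treg cells in a state, the CD3 ratio was 0.089 (S100) and 0.31 (Ccl5), called genes of the 10 were 2 (S100) and 3 (Ccl5), called pathway genes were 3 (Ccl5), and the Cd247 share was 6.29% (resting). With cells thinned to 500 UMIs, the CD3 ratio was −0.16 (resting), 0.27 (Ccl5), 0.28 (TCR-response), −0.056 (interferon) and 0.19 (Tmem176), called genes of the 10 were 2 (TCR-response), 2 (cycling) and 1 (Tmem176), called pathway genes were 6 (TCR-response), 0 (interferon) and 11 (Tmem176), and the Cd247 share was 4.71% (S100), 3.36% (TCR-response), 2.05% (follicular) and 0% (Tmem176). With thinning seed 2, called genes of the 10 were 1 (Tmem176) and called pathway genes were 1 (interferon). With seed 3, the CD3 ratio was 0.33 (follicular), called genes of the 10 were 0 (S100), 2 (Ccl5) and 1 (Tmem176), and called pathway genes were 1 (interferon), 8 (cycling) and 5 (Tmem176). With seed 4, the CD3 ratio was −0.16 (resting), 0.28 (Ccl5) and 0.36 (follicular), called genes of the 10 were 2 (S100), 2 (Ccl5), 5 (follicular) and 2 (Tmem176), and called pathway genes were 0 (interferon) and 4 (Tmem176). With cells high for 1 state only against cells high for none, the CD3 ratio was −0.15 (resting), called genes of the 10 were 0 (S100), 2 (cycling) and 1 (Tmem176), and called pathway genes were 4 (S100), 4 (TCR-response), 0 (interferon), 5 (follicular) and 16 (Tmem176). With totals without ribosomal protein and mitochondrial genes, the CD3 ratio was −0.10 (resting), −0.034 (S100), 0.13 (Ccl5), 0.11 (TCR-response), −0.49 (cycling) and 0.29 (follicular), called genes of the 10 were 2 (resting), 0 (S100), 0 (Ccl5) and 4 (cycling), and called pathway genes were 3 (Ccl5) and 9 (cycling). Against each set's own other Treg cells, the CD3 ratio was 0.093 (S100) and 0.19 (Ccl5) and called genes of the 10 were 0 (S100) and 0 (Ccl5). Without cells with UMIs of other cell types and the top 2% by UMIs, the CD3 ratio was 0.17 (S100) and 0.094 (cycling), called genes of the 10 were 2 (S100), called pathway genes were 5 (follicular) and 4 (Tmem176), and the Cd247 share was 2.54% (cycling). With cells under 2500 genes and 5% mitochondrial UMIs, the CD3 ratio was 0.18 (S100) and −0.086 (cycling) and called genes of the 10 were 2 (S100), 2 (Ccl5) and 0 (cycling). At 1.5-fold, called genes of the 10 were 0 (resting), 0 (S100), 0 (Ccl5), 0 (TCR-response), 0 (cycling) and 1 (follicular) and called pathway genes were 2 (resting), 4 (S100), 1 (Ccl5), 4 (TCR-response), 0 (interferon) and 2 (cycling). With levels from thinned UMIs, the CD3 ratio was 0.20 (Ccl5) and −0.13 (cycling), called genes of the 10 were 0 (S100) and 2 (Ccl5), called pathway genes were 6 (resting), 3 (Ccl5), 4 (follicular) and 9 (Tmem176), and the Cd247 share was 3.62% (TCR-response), 7.11% (cycling) and 2.46% (follicular). Without barcodes found in more than 1 set, called genes of the 10 were 2 (Ccl5) and called pathway genes were 4 (Tmem176). Relative to the median gene, the CD3 ratio was −0.076 (resting), −0.0086 (S100), 0.13 (Ccl5), 0.12 (TCR-response) and 0.28 (follicular), called genes of the 10 were 2 (resting), 0 (S100), 0 (Ccl5) and 1 (Tmem176), and called pathway genes were 3 (Ccl5). Without Hif1a as a marker, the CD3 ratio was 0.49 (follicular) and called pathway genes were 4 (follicular). Matched on set and depth tertile, the CD3 ratio was −0.12 (resting), 0.090 (S100), 0.15 (Ccl5) and −0.21 (cycling), called genes of the 10 were 0 (S100) and 0 (cycling), and called pathway genes were 3 (Ccl5). Leaving out 1 barcode set at a time, the CD3 ratio ran over 0.12 to 0.16 (S100), −0.020 to 0.053 (interferon) and 0.36 to 0.49 (follicular); called genes of the 10 over 0 to 2 (S100), 1 to 2 (Ccl5), 1 to 2 (cycling), 3 to 5 (follicular) and 0 to 1 (Tmem176); and called pathway genes over 5 to 10 (Ccl5), 2 to 4 (interferon), 4 to 10 (cycling), 9 to 14 (follicular) and 2 to 7 (Tmem176). Set 6, when left out, removed the call of Cd6 in S100-marker cells and added that of Zap70 in Ccl5-marker cells. Of the other values for these 4 results, 493 stayed within their interval or within 1.5 times the count. No paired analysis was possible because no cell column carries a sample name, so the replicate numbers of cKO and WT could not be used, and the block and DESeq2 fits were not run. The cycling- and Tmem176-marker states hold 61 and 36 cells, which limits their precision.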

Other observations

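The 6 barcode sets fell on either side of a gap for several of the genes, as values of sets whose genotype is not given here. In sets 1 to 6, Cd3g stood at 1266, 1287, 1158, 1618, 1581 and 1455 CPM, and Cd3d at 1274, 1269, 1238, 1422, 1395 and 1347 CPM. Cd3e stood at 655, 728, 638, 820, 831 and 751 CPM, Cd247 at 154, 150, 145, 174, 183 and 177 CPM, and Cd4 at 124, 128, 124, 152, 147 and 148 CPM. Lck stood at 627, 638, 587, 688, 720 and 672 CPM, and Lat at 549, 541, 537, 585, 652 and 618 CPM. Cd5 stood at 186, 223, 178, 239, 228 and 234 CPM. For Cd6 (169, 208, 176, 193, 202 and 220 CPM) and Zap70 (168, 162, 145, 167, 171 and 179 CPM), no such gap appeared. Ribosomal protein genes gave 36.6%, 36.5%, 37.5%, 31.5%, 31.5% and 32.1% of UMIs in the same sets. With ribosomal protein and mitochondrial genes out of the totals, Cd3g stood at 2055, 2086, 1911, 2428, 2371 and 2204 CPM, Cd3d at 2069, 2057, 2043, 2134, 2092 and 2040 CPM, and Cd3e at 1064, 1180, 1053, 1230, 1246 and 1137 CPM. On these totals the order was absent for Cd3d, Cd3e, Cd5, Lck and Lat and present for Cd3g, Cd247 and Cd4. The nearest sets across it stood close for Cd247, at 250 CPM in set 1 (738 UMIs) and 261 CPM in set 4 (730 UMIs). For Cd4 they stood at 207 CPM in set 2 and 221 CPM in set 5. No interval was computed on these totals. The part of cell states in these values was not tested: resting-marker cells made up 19.8%, 20.1%, 19.8%, 14.3%, 14.3% and 15.3% of the Treg cells in sets 1 to 6, and Ccl5-marker cells 10.8%, 10.4%, 10.7%, 17.1%, 23.6% and 16.9%.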
